A study of Mus musculus with 36 samples.

Results

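The genes described here are 9 genes of the Leydig cells, the androgen-making cells that lie between the seminiferous tubules of the testis: Star, Cyp11a1, Cyp17a1, Hsd17b3, Cyb5a, Insl3, Lhcgr, Akr1cl and Aldh1a1. They were taken by name as steroid synthesis enzymes, a hormone and a receptor of these cells, and every array probe annotated to them was used. The platform annotation gave 15 probes for 8 of the 9 genes and no probe for Lhcgr, the receptor for luteinizing hormone, which is therefore named only. Of these probes 12 passed the detection filter, and all 8 genes with a probe were tested among 11529 genes in all. Expression was measured in whole testis of juvenile C57BL/6 mice on single-colour Illumina bead arrays.

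The 6 groups were 4 Brdt-/- and 6 Brdt+/- animals at 17 days post partum (dpp), 4 Brdt-/- and 3 Brdt+/+ animals at 20 dpp, and 3 BD1-/- animals and 4 controls of that line at 20 dpp. Brdt encodes a testis-specific bromodomain protein of germ cells, and the BD1-/- animals carry a deletion of its first bromodomain on both alleles. The controls of the BD1 line were 2 BD1+/- and 2 BD1+/+ animals, whereas the controls at 17 dpp were heterozygous knockouts and those of the knockout line at 20 dpp were wild type. The study asked how loss of Brdt or of its first bromodomain changes expression in the testis. At 20 dpp all 3 Brdt+/+ animals and 2 of the 4 Brdt-/- animals came from litter 1, the other two Brdt-/- animals from litter 2. Each of the 3 litters at 17 dpp and of the 3 litters of the BD1 line held both genotypes. Testes weighed 18 to 21.5 mg in Brdt-/- and 22 to 23.8 mg in Brdt+/+ animals at 20 dpp.

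The 36 arrays came from 24 animals, and repeat arrays were averaged first, which makes n the number of animals. Between 17379 and 20016 probes were detected per array. The Brdt probe lay at 5.28 to 6.71 on the log2 scale in Brdt-/- animals against 8.47 to 9.52 in Brdt+/- animals at 17 dpp, and at 7.23 to 8.28 in Brdt-/- animals against 11.44 to 11.61 in Brdt+/+ animals at 20 dpp. It lay at 10.20 to 10.50 in BD1-/- animals and at 10.75 to 11.73 in the controls of that line. The position of the probe relative to either deletion was not given in the sources used here.

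Leydig cells make testosterone from cholesterol in response to luteinizing hormone. The protein encoded by Star carries cholesterol into the mitochondrion, Cyp11a1 cleaves its side chain to give pregnenolone, Cyp17a1 turns C-21 into C-19 steroids with cytochrome b5 (Cyb5a) as a helper, and Hsd17b3 makes testosterone. Adult Leydig cells form after birth, while the fetal population declines, so juvenile testes hold cells of changing steroid output. Insl3 encodes a peptide hormone of Leydig cells that acts in testis descent. Akr1cl encodes a member of the aldo-keto reductase family, and Aldh1a1 an enzyme that makes retinoic acid and that Sertoli cells of the mouse also express. Cyb5a is made in many tissues.

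The start regions of Insl3, Akr1cl and Aldh1a1 are shown because, of the windows searched, theirs held a loose form of a motif known from steroidogenic genes. The windows hold the 150 bases before the annotated start, on the strand of the gene, from RefSeq on build GRCm38.p6. Capitals mark CAAGGNC, a loose form of the half-site bound by the nuclear receptor NR5A1 (steroidogenic factor), searched on both strands. N stands for any base, and it is T or C in the marked stretches of Insl3, C in that of Akr1cl and G in that of Aldh1a1.
Insl3, chr8:71689102-71689251, plus strand: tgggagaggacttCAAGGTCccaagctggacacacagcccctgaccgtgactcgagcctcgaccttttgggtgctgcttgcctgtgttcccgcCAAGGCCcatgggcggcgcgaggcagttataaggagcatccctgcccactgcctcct
Akr1cl, chr1:65032760-65032909, minus strand: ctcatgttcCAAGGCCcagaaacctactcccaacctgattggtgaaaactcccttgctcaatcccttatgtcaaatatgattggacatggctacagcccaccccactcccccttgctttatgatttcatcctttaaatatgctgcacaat
Aldh1a1, chr19:20601818-20601967, plus strand: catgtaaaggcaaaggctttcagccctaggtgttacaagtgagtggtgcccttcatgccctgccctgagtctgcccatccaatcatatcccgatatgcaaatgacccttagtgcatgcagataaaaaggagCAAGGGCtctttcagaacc
The letters CAAGGNC stood in 3 of the 8 windows of 250 bases listed for 6 of the genes, and in 15.0% of all 32851 windows of that length. The longer form AAGGTCA stood in 0 of these 8 windows and in 4.08% of all windows. The 3 matching windows are those of Insl3, Akr1cl and 1 of the 2 starts of Aldh1a1, while neither start of Cyp11a1 held these letters. The motif was chosen with results of these data known, and a match in sequence is not evidence of binding.

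At 20 dpp, 6 of the 8 measured Leydig genes were higher in Brdt-/- than in Brdt+/+ testes and none was lower. The log2 fold change was 0.58 to 1.01 in 5 of them, and for Hsd17b3, whose probe was at background in Brdt+/+ testes, it is bounded only as at least 1.05-fold. The highest fold changes were those of Akr1cl and of Cyp11a1, the enzyme that commits cholesterol to steroid synthesis. Of all genes tested 39.4% were called higher in this comparison, and the median log2 fold change of the 8 genes was 0.77 against 0.24 over all genes. In bulk testis RNA, more cells of a type and more RNA per cell cannot be told apart.

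Akr1cl lay at 12.07, 12.28, 12.35 and 12.42 log2 normalised intensity in Brdt-/- animals, against 10.86, 11.42 and 11.54 in Brdt+/+ animals. Every Brdt-/- animal thus lay above every Brdt+/+ animal. The difference was 1.01 ± 0.15 (log2, SE), a 2.01-fold change, with a limma adjusted p of 1.7e-05.

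Cyp11a1 lay at 8.13, 8.61, 8.62 and 8.79 in Brdt-/- animals, against 7.14, 7.41 and 8.05 in Brdt+/+ animals. The groups did not overlap, although the lowest Brdt-/- animal and the highest Brdt+/+ animal lay close together. The difference was 1.00 ± 0.30 (log2, SE), with a limma adjusted p of 0.0072. Aldh1a1 lay at 11.39, 11.47, 11.80 and 11.97 in Brdt-/- animals, against 10.57, 10.59 and 11.03 in Brdt+/+ animals, a difference of 0.92 ± 0.19 with a limma adjusted p of 0.00040. The pair of higher Brdt-/- values belonged to litter 2, and the pair from litter 1 also lay above all Brdt+/+ values.

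Cyb5a, the helper of Cyp17a1, and Insl3 also did not overlap between the groups. The values of Cyb5a were 12.14, 12.25, 12.34 and 12.45 in Brdt-/- animals, against 11.59, 11.65 and 11.76 in Brdt+/+ animals, a 1.55-fold change with a limma adjusted p of 0.00024. Insl3 lay at 12.67, 12.99, 13.12 and 13.26 in Brdt-/- animals, against 12.15, 12.50 and 12.63 in Brdt+/+ animals, a difference of 0.58 ± 0.20 with a limma adjusted p of 0.016. Its lowest Brdt-/- value was just above the highest Brdt+/+ value. Hsd17b3, which makes testosterone, was dim: its probe was detected on 4 of the 6 arrays of Brdt-/- animals and on none of the 6 arrays of Brdt+/+ animals. Its values of 5.41, 5.63, 5.77 and 5.85 in Brdt-/- animals stood against 5.02, 5.08 and 5.19 in Brdt+/+ animals, with a limma adjusted p of 0.037. Since the Brdt+/+ level was not well above background, these values give no exact fold.

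Cyp17a1 and Star did not pass the test. Cyp17a1 lay at 11.57, 12.46, 12.60 and 12.61 in Brdt-/- animals, against 10.72, 11.24 and 12.14 in Brdt+/+ animals. These groups overlapped through Brdt-/- animal 139, the lowest of its group, and the difference of 0.94 had a 95% confidence interval of 0.04 to 1.84 (limma adjusted p = 0.067). Without that animal the difference was 1.19 with a limma adjusted p of 0.033. Without Brdt+/+ animal 157, the highest of its group, it was 1.33 with a limma adjusted p of 0.026. These were the only 2 calls in 7 fits that each left out 1 animal. Over the 7 fits the Cyp17a1 difference was 0.62 to 1.33, with limma adjusted p up to 0.29. Star lay at 5.47, 5.72, 6.03 and 6.24 in Brdt-/- animals and at 4.95, 5.25 and 5.64 in Brdt+/+ animals, and its probe was detected on 14 of 36 arrays in all. The difference of 0.58 had an interval of -0.05 to 1.22 (limma adjusted p = 0.10). With litter as a block Cyp17a1 was called (1.24, limma adjusted p = 0.032) and Hsd17b3 was not (0.42, limma adjusted p = 0.15). Only litter 1 held both genotypes of this comparison. The fit with litter as a block thus takes its difference from that litter, as does the fit within litter 1 alone, and these are not separate checks.

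The 6 called genes were also those with no overlap between the animals, a pattern that 41.7% of all genes showed in this direction. Within litter 1 alone, 3 genes remained called: Akr1cl differed by 0.91, Aldh1a1 by 0.69 and Cyb5a by 0.53, with limma adjusted p of 0.0013, 0.017 and 0.0093. All 8 genes were higher in the Brdt-/- animals of that litter, by 0.42 to 1.24. The call of Hsd17b3 was also lost with no background correction (0.18, limma adjusted p = 0.059), in the authors' processed matrix (0.18), with an offset of 50 (0.31) and with no filter on detection (limma adjusted p = 0.055). It was lost when any 1 of the 3 Brdt+/+ animals or of Brdt-/- animals 139, 140 and 148 was left out, and the call of Insl3 without Brdt-/- animal 140 or Brdt+/+ animal 149.

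**Figure D1:**
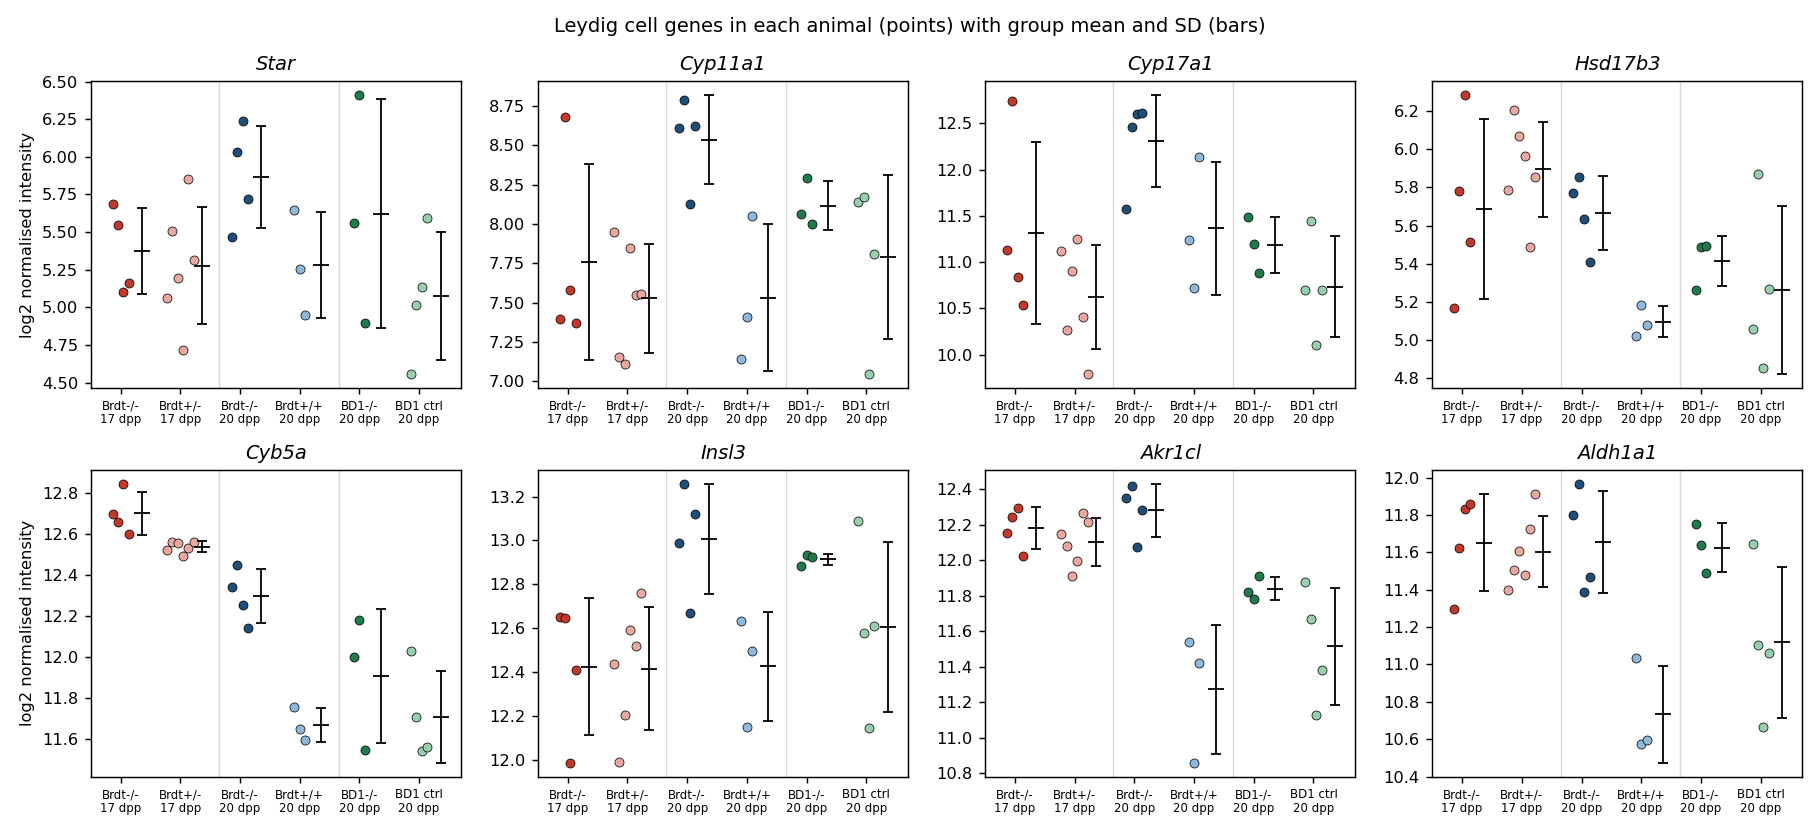
Log2 normalised intensity of the tested probe of each gene (y axis, a separate scale per gene) in the 24 animals of 6 groups (x axis). Points are animals, bars the group mean and SD. For Akr1cl, Aldh1a1, Cyb5a, Cyp11a1, Hsd17b3 and Insl3 all 4 Brdt-/- animals at 20 dpp lie above the 3 Brdt+/+ animals.

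Other genes of steroid synthesis and of Leydig cells rose in the same comparison. Of 21 further steroidogenesis genes tested, 12 were higher and 0 lower, with a median log2 fold change of 0.52. Of 28 other Leydig genes, 20 were higher and 1 lower, with a median of 0.66. Higher were Prkar1a, a regulatory subunit of protein kinase A (0.58), Vdac1, a channel of the outer mitochondrial membrane (0.89), Acbd3, a protein that binds that subunit and the mitochondrial translocator protein (0.52), the angiotensinogen gene Agt (1.18) and Mgst1, a microsomal glutathione transferase (0.83). The lower gene was Pdgfa, a ligand for the receptor Pdgfra of Leydig precursors (-0.66, limma adjusted p = 2.8e-05). Of 17 cholesterol synthesis genes 9 were higher and 1 lower, with Msmo1 (0.73), Dhcr7 (0.98) and Ebp (0.80), enzymes of the late steps, among those higher.

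Several lists of other cells were higher too, but not all. Of 29 Sertoli genes 23 were higher, with a median log2 fold change of 0.60, including Inha (0.88) and Cst9 (0.63). Of 15 macrophage genes 13 were higher, with a median of 0.90, including Tyrobp (0.92) and Lyz1 (1.09), and their summed normalised intensity was 9868 to 11343 in Brdt-/- against 4563 to 6846 in Brdt+/+ animals. For the 8 Leydig genes that sum was 24986 to 31041 in Brdt-/- and 13069 to 17995 in Brdt+/+ animals. Of 10 peritubular genes 4 were higher, a share near that of all genes, and of 12 endothelial and blood genes 1, Cd34 (0.94), with a median of 0.32. Of 14 spermatogonial genes 10 were higher. Of 16 round spermatid genes 15 were lower, with a median of -3.34. The part of these cells in the values of the Leydig genes was not tested.

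**Figure D2:**
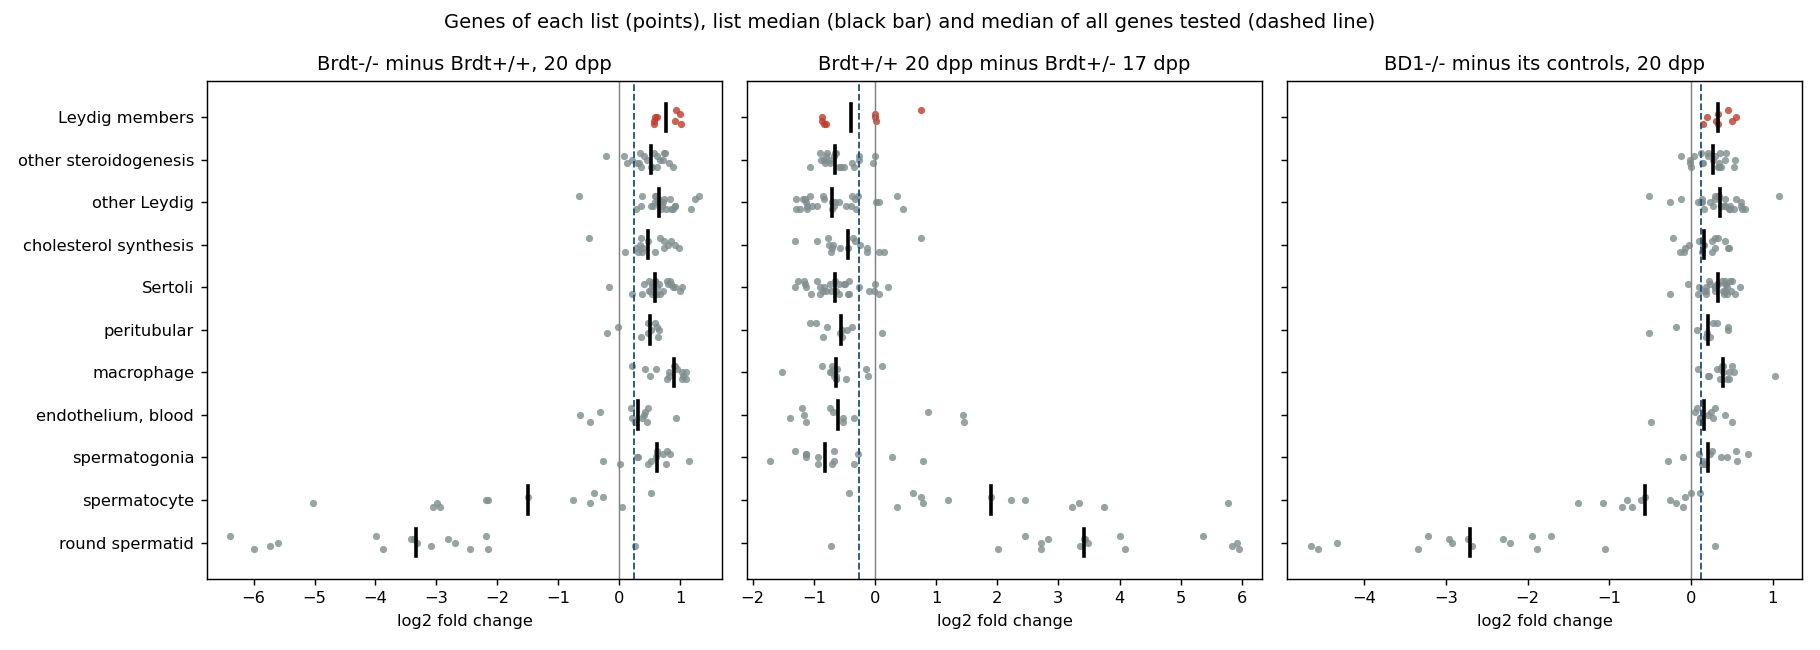
Log2 fold changes (x axis) of the genes of each list (rows, 1 point a gene) in 3 comparisons, with the list's median as a black bar and the median of all genes tested as a dashed line. In the comparison of Brdt-/- with Brdt+/+ testes the Leydig median of 0.77 lies beside the Sertoli median of 0.60 and the macrophage median of 0.90, far from the round spermatid median of -3.34.

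Each animal was also scaled by the change of its Sertoli genes. In Brdt-/- against Brdt+/+ testes at 20 dpp this takes the same 0.65 from every gene. Smaller differences of the Leydig genes on this scale thus follow from the Sertoli change, and their cause was not tested. This scaling subtracts, in each animal, the median deviation of the 29 Sertoli genes from their own means, and was chosen after seeing the data. Relative to it only Akr1cl remained higher, by 0.36 (limma adjusted p = 0.026), where 0.616% of all genes were called higher and 50% lower. Aldh1a1 stood at 0.27, Cyp11a1 at 0.35 and Cyp17a1 at 0.29, none of them called, while Cyb5a, Hsd17b3, Insl3 and Star lay between -0.09 and -0.03.

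At 17 dpp none of the 8 Leydig genes differed between Brdt-/- and Brdt+/- testes, with limma adjusted p between 0.38 and 0.99, where 1.34% of all genes were called. At an unadjusted p under 0.05 the count was also 0, a cut for which the share of all genes is not given. The median log2 fold change of the 8 genes was 0.09 against 0.04 over all genes. Insl3 lay at 11.99, 12.41, 12.65 and 12.65 in Brdt-/- animals, while in Brdt+/- animals it ranged over 11.99, 12.48 and 12.76 (lowest, median and highest). The interval of its difference was -0.34 to 0.35, so a 1.5-fold change lay outside it. Akr1cl lay at 12.03 to 12.29 in Brdt-/- animals and at 11.91 to 12.27 in Brdt+/- animals, with an interval of -0.19 to 0.34. Cyb5a lay at 12.60, 12.66, 12.70 and 12.84 in Brdt-/- animals, while Brdt+/- animals ranged over 12.49, 12.54 and 12.56 (lowest, median and highest). These groups did not overlap, but the difference of 0.16 had an interval of -0.05 to 0.37 and was not called (limma adjusted p = 0.47).

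Cyp17a1 had the widest spread at this age. It lay at 10.54, 10.84, 11.13 and 12.74 in Brdt-/- animals, while Brdt+/- animals ranged over 9.79, 10.65 and 11.25 (lowest, median and highest). The highest of all these values belonged to Brdt-/- animal 73, which also had the highest Cyp11a1 value of its age, 8.68 against 7.37, 7.40 and 7.58 in the other Brdt-/- animals. On the dimmer Cyp11a1 probe this animal lay at 6.54, at the low end of its group. The Cyp17a1 difference of 0.69 had an interval of -0.08 to 1.45. With litter as a block the differences of the 8 genes ranged from -0.14 to 0.36, and again none was called.

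In the BD1 line none of the 8 Leydig genes was called at 20 dpp, where 9.63% of all genes were, but all 8 differences were positive, with a median log2 fold change of 0.32 against 0.12 over all genes. Before adjustment the limma p was 0.013 for Aldh1a1 and 0.044 for Akr1cl. The share of all genes under 0.05 before adjustment is not given, so this is not read as a result about the 8 genes. Aldh1a1 lay at 11.49, 11.64 and 11.75 in BD1-/- animals, against 10.66, 11.06, 11.10 and 11.64 in the controls of that line. Only BD1+/- control animal 191 lay among the BD1-/- values. The difference was 0.51 with an interval of 0.12 to 0.90 (limma adjusted p = 0.084).

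Akr1cl lay at 11.78, 11.82 and 11.91 in BD1-/- animals, against 11.13, 11.38, 11.67 and 11.88 in the controls, a difference of 0.32 with an interval of 0.01 to 0.64. Insl3 lay at 12.88, 12.93 and 12.93 in BD1-/- animals, inside the range of 12.14 to 13.09 of the controls. Cyp11a1 lay at 8.00, 8.06 and 8.29 in BD1-/- animals and at 7.05, 7.81, 8.14 and 8.17 in the controls. In both genes the BD1-/- animals were close together while the controls were spread out. Star, at 4.90, 5.56 and 6.41 in BD1-/- animals and 4.56 to 5.59 in the controls, was spread in both groups. With litter as a block the difference of Aldh1a1 was 0.46 with a limma adjusted p of 0.026. Without control animal 191, Aldh1a1, Akr1cl and Cyb5a were called, with differences of 0.68, 0.45 and 0.30.

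The effects of the 2 alleles at 20 dpp were compared directly. The BD1 effect minus the knockout effect was negative for all 8 genes, between -0.04 for Star and -0.68 for Akr1cl and Cyp11a1, but none was called, where 1.25% of all genes were. Before adjustment the limma p was 0.0042 for Akr1cl and 0.019 for Cyb5a, again with no share of all genes given at that stage. Akr1cl had the lowest limma adjusted p, 0.14, with an interval of -1.13 to -0.24, and it was called without control animal 196 (-0.81, limma adjusted p = 0.034). Between the control groups of the 2 lines none of the 8 genes was called, where 1.71% of all genes were. No unadjusted p of the 8 genes was under 0.05, a cut for which the share of all genes is not given. The largest difference there was that of Cyp17a1, -0.63 with an interval of -1.53 to 0.27, while 6 of the 8 differences were positive. Aldh1a1 was higher in the controls of the BD1 line by 0.38, with an interval of -0.004 to 0.77. Its mean was 11.625 in BD1-/- and 11.655 in Brdt-/- animals at 20 dpp. Its allele difference thus lies mainly between the controls. Of the further steroidogenesis genes 2 of 21 were higher in BD1-/- testes, Prkar1a (0.35) and Acbd3 (0.34), and of the other Leydig genes Sct, the secretin gene, was higher (0.55) and Pdgfa lower (-0.51, limma adjusted p = 0.0017). Of 29 Sertoli genes 3 were higher, and of 16 round spermatid genes 13 were lower, with a median of -2.71. Of all 11529 genes tested, 372 were higher and 738 lower in BD1-/- testes.

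**Figure D3:**
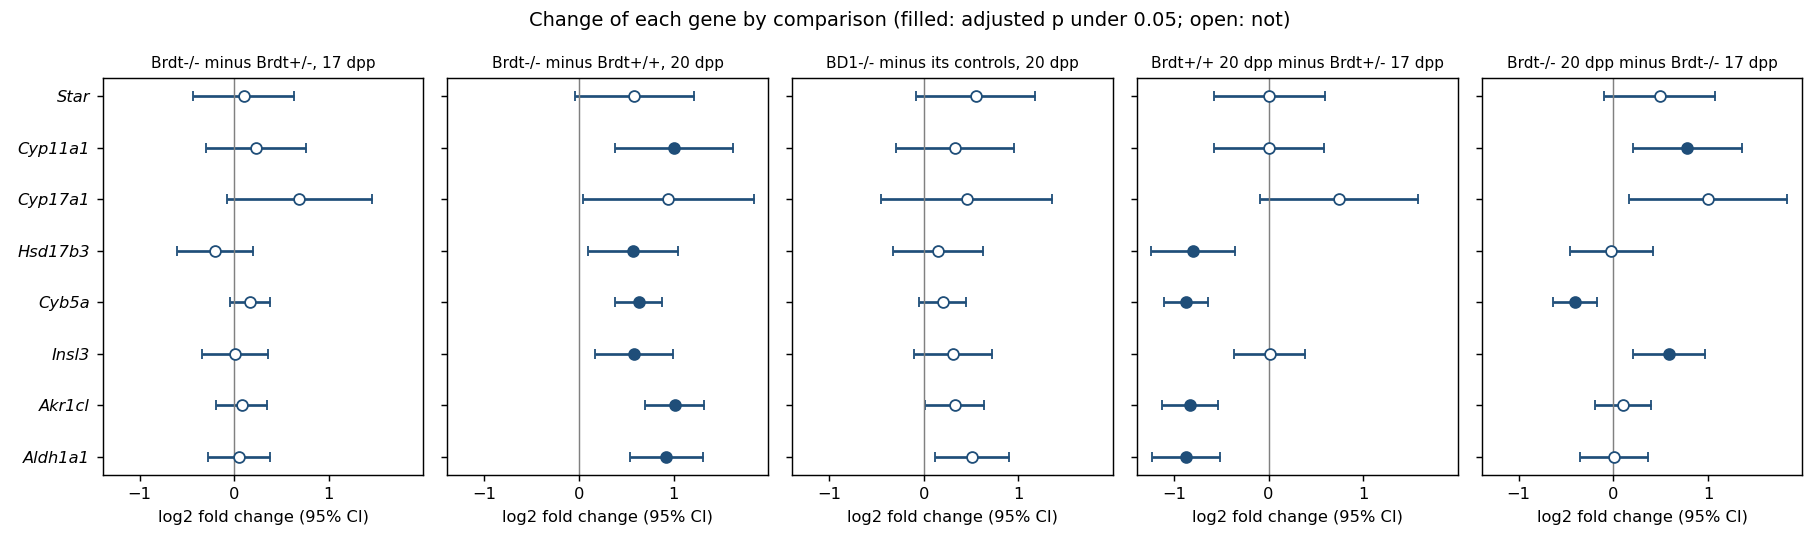
Log2 fold change (x axis) of each of the 8 genes (rows) in 5 comparisons, with 95% confidence intervals as bars and filled points where the limma adjusted p is under 0.05. In Brdt-/- against Brdt+/+ testes at 20 dpp 6 points are filled, at 17 dpp and in the BD1 line none is, and with age Akr1cl, Aldh1a1, Cyb5a and Hsd17b3 are filled on the negative side in controls.

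Between the control groups of 17 and 20 dpp the Leydig genes split. Akr1cl, Aldh1a1, Cyb5a and Hsd17b3 were lower in Brdt+/+ testes at 20 dpp than in Brdt+/- testes at 17 dpp, where 45.5% of all genes were lower, a share near that of the 8 genes. Cyp11a1 and Insl3 differed by 0.00 and 0.01. Star was detected on 2 of 6 arrays of the older and 1 of 6 of the younger controls, so its difference of 0.01 says little of its level. Cyp17a1 stood at 0.74 with an interval of -0.09 to 1.58 (limma adjusted p = 0.10). This comparison also differs in Brdt genotype, and the 3 older animals came from 1 litter, so age, litter and genotype cannot be told apart.

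Cyb5a lay at 11.59, 11.65 and 11.76 in the older controls, while the younger controls ranged over 12.49, 12.54 and 12.56 (lowest, median and highest). The difference was -0.87 ± 0.11 (log2, SE) with a limma adjusted p of 1.1e-06. Aldh1a1 fell by 0.87 and Akr1cl by 0.83, with limma adjusted p of 0.00014 and 2.5e-05. The Hsd17b3 probe was detected on none of 6 arrays of the older and on 5 of 6 arrays of the younger controls, and its level is bounded only as at least 1.23-fold lower in the older controls (limma adjusted p = 0.0021). In each of these 4 genes every older control lay below every younger one, as did 40.2% of all genes. With litter as a random block the same 4 genes were called, with fitted differences of -0.71 to -0.82. For Hsd17b3 the fitted value is again not exact, since its probe was not detected in the older controls.

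Other genes of the lists fell with them. Of the 21 further steroidogenesis genes 17 were lower and 0 higher in the older controls, and of 28 other Leydig genes 20 were lower and 1 higher. Mgst1 (-1.18), Gsta3, another glutathione transferase (-1.15), Vdac1 (-1.07), Kit, a receptor also of spermatogonia (-1.12), Jam2, a junction protein (-1.02), and Prkar1a (-0.66) had the lowest adjusted p. Of 29 Sertoli genes 23 were lower, with a median of -0.65, and of 15 macrophage genes 10 were lower, with a median of -0.64. Of 17 cholesterol synthesis genes 10 were lower, including Msmo1 (-0.95) and Scap, the escort of the sterol-sensing transcription factors (-1.32), and 1 was higher, the squalene epoxidase gene Sqle (0.74).

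Brdt-/- testes of the 2 ages were compared in the same way. On their brighter probes Cyp11a1 was higher by 0.78 ± 0.28 (limma adjusted p = 0.041) and Insl3 by 0.58 ± 0.18 (limma adjusted p = 0.023) at 20 dpp. Of all genes 13.3% were higher. The dimmer Cyp11a1 probe went the other way, by -0.48 (limma adjusted p = 0.047), and the mean of the Cyp11a1 probes gave 0.15. Cyb5a fell by 0.40 (limma adjusted p = 0.012), where 13.5% of all genes were lower. Akr1cl, Aldh1a1 and Hsd17b3 differed by 0.10, 0.00 and -0.02, with intervals of -0.19 to 0.39, -0.36 to 0.36 and -0.46 to 0.42. Cyp17a1 stood at 1.00 with an interval of 0.16 to 1.83 (limma adjusted p = 0.069). Without animals 73 and 139, which lie apart in Cyp11a1 or Cyp17a1, it stood at 1.72 with a limma adjusted p of 0.0017. Leaving out this pair was not planned. In 8 fits that each left out 1 animal Cyp17a1 was called in 2, with differences of 0.74 to 1.47 and limma adjusted p up to 0.21. The calls of Cyp11a1, Insl3 and Cyb5a all ended when Brdt-/- animal 122 at 17 dpp or animal 152 at 20 dpp was left out. Those of Cyp11a1 and Insl3 also ended without animal 140. The call of Cyp11a1 was also lost without animals 72, 129 or 139, 6 of 8 animals in all, and with litter as a random block (limma adjusted p = 0.0997) or no filter on detection (0.062). The litters of the 2 ages differ, so age and litter cannot be told apart. Among the other steroidogenesis and Leydig genes Mgst1 (-0.70), the phosphodiesterase gene Pde4b (-0.69), Nr5a1, the steroidogenic nuclear receptor (-0.78), Gsta3 (-0.55) and Kit (-0.50) fell, and Itih2 rose by 1.02. Nr5a1 was dim, at 5.37 to 6.06 in Brdt-/- animals at 20 dpp, so the size of its fall is uncertain.

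The knockout effect itself was larger at 20 than at 17 dpp for 3 genes, where 12.4% of all genes were called in that direction. The difference between the effects was 0.93 ± 0.20 for Akr1cl, 0.87 ± 0.25 for Aldh1a1 and 0.47 ± 0.16 for Cyb5a, with limma adjusted p of 0.0021, 0.016 and 0.038. The call of Cyb5a was lost in 10 of 17 fits that left out 1 animal, with adjusted p up to 0.10, and that of Aldh1a1 in 2, without Brdt+/+ animal 149 or 157. Cyp11a1 and Insl3 were not called, with limma adjusted p of 0.14 and 0.10. It was positive for all 8 genes, with a median of 0.67 against 0.19 over all genes. With litter as a block Akr1cl alone remained called (0.84, limma adjusted p = 0.014). Relative to the Sertoli genes, which takes 0.45 from every gene here, none was called, where 0.243% of all genes were called higher.

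Relative to the Sertoli genes, 3 genes that had not passed the test between the control groups of the 2 ages were called higher. The Sertoli shift in that comparison was -0.67, the same for every gene. In Brdt+/+ testes at 20 dpp against Brdt+/- testes at 17 dpp, Cyp17a1 stood at 1.41, Insl3 at 0.68 and Cyp11a1 at 0.67 relative to the Sertoli genes, with limma adjusted p of 0.0061, 0.0017 and 0.038, where 52.7% of all genes were called higher, a larger share than among the 8 genes. Star stood at 0.67 and was not called (limma adjusted p = 0.064). Cyb5a stood at -0.20 and was called lower (limma adjusted p = 0.027), where 7.8% of all genes were lower, and Akr1cl, Aldh1a1 and Hsd17b3 lay at -0.13 to -0.20 and were not called. In Brdt-/- testes the same 3 genes were called higher at 20 than at 17 dpp on this scale, Cyp17a1 by 1.21, Cyp11a1 by 1.00 and Insl3 by 0.80, where 18.2% of all genes were higher. Star stood at 0.71 there and was not called (limma adjusted p = 0.10), nor were Akr1cl, Aldh1a1 and Hsd17b3. The values of Cyp11a1 and Insl3 on this scale are those of their brighter probes. The dimmer Cyp11a1 probe was lower at the older age before this scaling.

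Probes of the same gene did not always move together. The dimmer Cyp11a1 probe lay at 6.17, 6.18, 6.21 and 6.47 in Brdt-/- animals and at 5.51, 5.59 and 5.61 in Brdt+/+ animals at 20 dpp, a difference of 0.68 in the direction of the brighter probe (limma adjusted p = 0.0047). With age, however, it was lower by 1.00 in controls (limma adjusted p = 3.7e-05) and fell by 0.48 in Brdt-/- testes (limma adjusted p = 0.047), where the brighter probe differed by 0.00 and 0.78. This probe was detected on 3 of 6 arrays of Brdt+/+ animals at 20 dpp and on all arrays of the other 3 groups compared here, so its low level there is near background. The difference of Cyp11a1 between the ages therefore depends on the probe, and litter and, in controls, Brdt genotype differ with age. Another Cyp11a1 probe and 2 of the 3 Hsd17b3 probes were detected on no array.

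The dimmer Insl3 probe gave 0.62 in Brdt-/- against Brdt+/+ testes at 20 dpp (limma adjusted p = 0.036), close to the 0.58 of the brighter one. With age it was higher by 0.52 in controls (limma adjusted p = 0.043) and by 1.00 in Brdt-/- testes (limma adjusted p = 0.0039), where the brighter probe differed by 0.01 and 0.58. Both Insl3 probes thus rose with age in Brdt-/- testes, and only the dimmer one in controls. These probe values come from a fit over the 21190 probes kept.

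**Figure D4:**
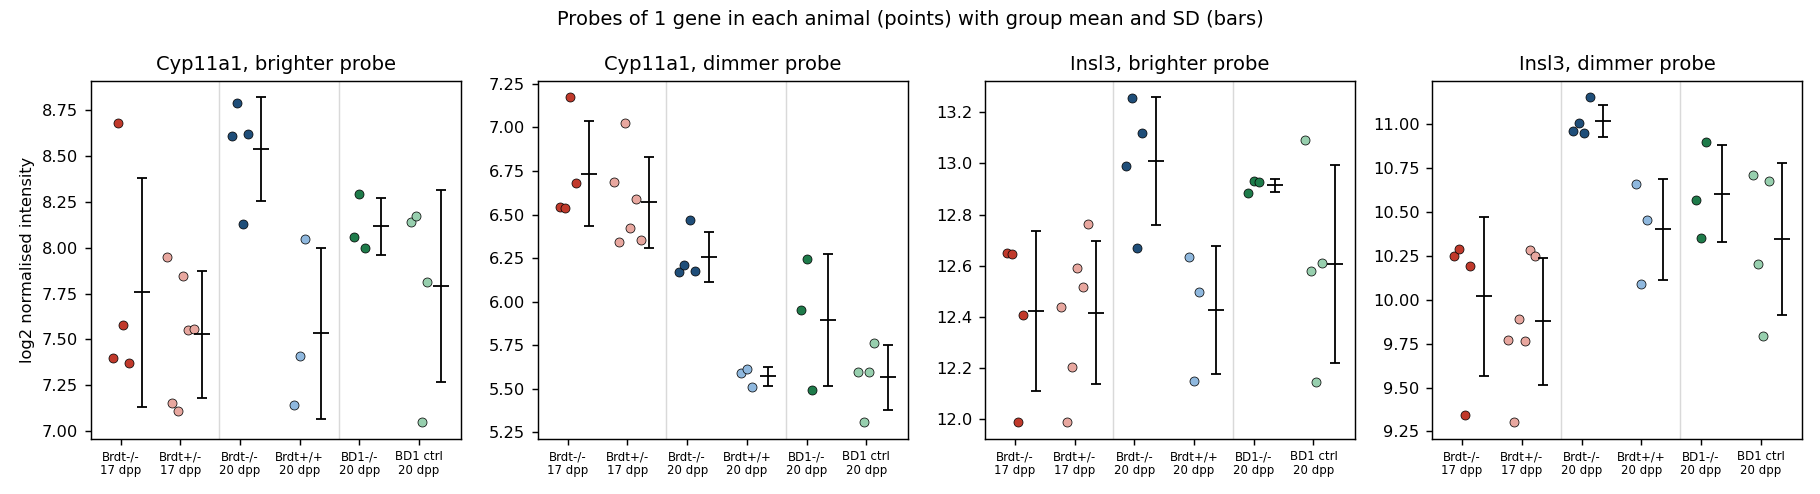
Log2 normalised intensity (y axis) of the 2 detected probes of Cyp11a1 and of Insl3 in the animals of the 6 groups (x axis), with group mean and SD as bars. The dimmer Cyp11a1 probe lies at 5.51 to 5.61 in Brdt+/+ animals at 20 dpp and at 6.34 to 7.03 in Brdt+/- animals at 17 dpp, while the brighter one overlaps between them.

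Animals of 1 group differed more in Cyp17a1 than in most genes. The SD between animals of a group was 0.64 (log2) for Cyp17a1, higher than in 97.9% of the genes tested, 0.43 for Cyp11a1 and 0.28 for Insl3, where the median over all genes was 0.23. In the 12 animals with 2 arrays, the SD between arrays of an animal was 0.14 for Cyp17a1, 0.15 for Cyp11a1 and 0.11 for Insl3. The spread between animals was thus 4.43 times that between arrays for Cyp17a1 and 2.63 to 2.82 times for Insl3 and Cyp11a1, against 1.09 times for Aldh1a1 and 1.29 times for Akr1cl. The dim genes Star and Hsd17b3 had an SD between animals of 0.43 and 0.31. Between arrays of an animal their SD was 0.32 and 0.21, a spread 1.35 and 1.45 times smaller. Whether repeat arrays hold 1 RNA extract is not stated in the labels.

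Part of this spread was shared. Over the 24 animals, as deviations from the group means, Cyp11a1 and Cyp17a1 had a Pearson correlation of 0.68, Akr1cl and Aldh1a1 of 0.65, Insl3 and Akr1cl of 0.64, and Aldh1a1 and Cyb5a of 0.62. Cyp11a1 and Insl3 stood at 0.57, and Insl3 and Aldh1a1 at 0.49. Cyp17a1 and Aldh1a1 stood at -0.18, and Star at or under 0.24 with each of the others. Hsd17b3 stood at or under 0.23 with each of the others, and its -0.32 with Insl3 was the lowest of all pairs. The probes of Star and Hsd17b3 were detected on only 14 and 16 of 36 arrays, so their correlations say little. The highest Cyp11a1 and Cyp17a1 deviations belonged to the same animal, number 73. These correlations are descriptions, since the genes of an animal share its arrays and their normalisation. The 5 genes outside the list with the highest correlation with the mean deviation of the 8 genes were Cd81 (0.85), Tmem74b (0.82), Dbndd2 (0.81), Eif2s2 (0.81) and Lrp10 (0.79), over the same 24 animals.

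**Figure D5:**
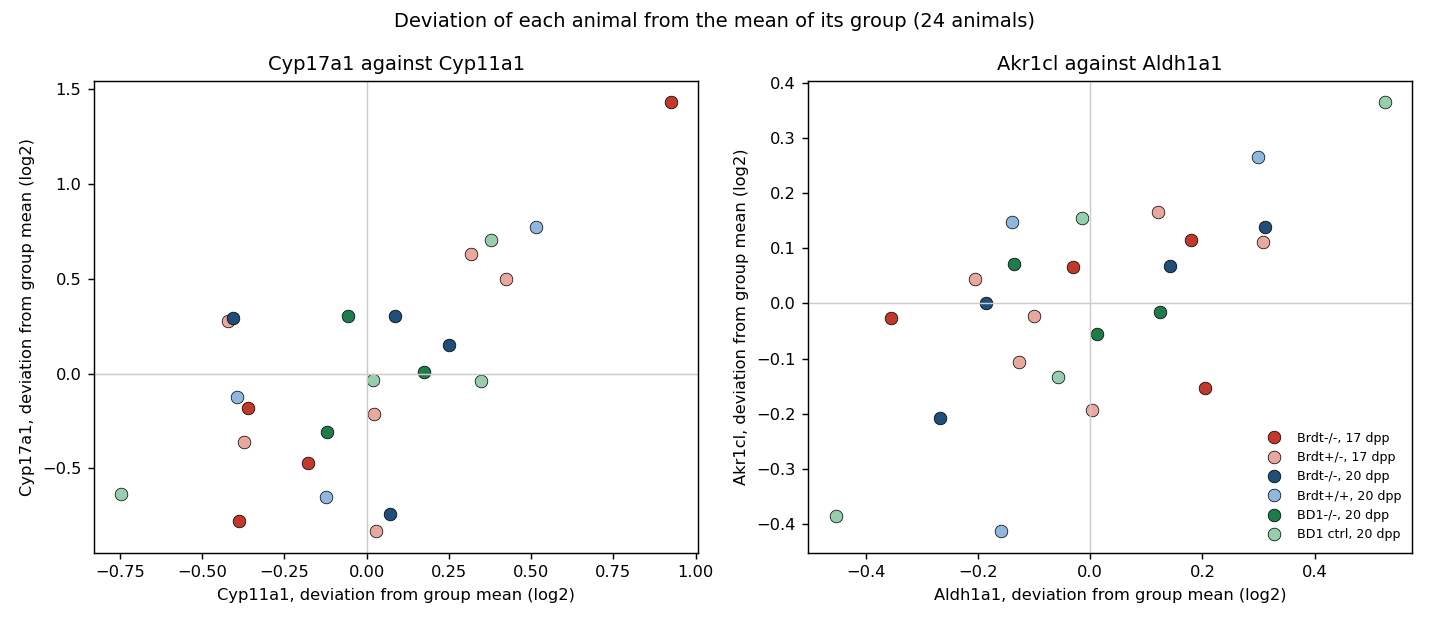
Deviation of each of the 24 animals from the mean of its group (log2) for Cyp17a1 (y axis) against Cyp11a1 (x axis), and for Akr1cl (y axis) against Aldh1a1 (x axis), coloured by group. The Pearson correlations are 0.68 and 0.65, and 1 Brdt-/- animal at 17 dpp stands apart at the top right in the plot of Cyp17a1 against Cyp11a1.

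The 8 genes carry the label of Leydig cells by name, so their own detection does not check it. The tested probes of Cyp11a1, Cyp17a1, Insl3, Akr1cl, Aldh1a1 and Cyb5a were detected on all 36 arrays. That of Hsd17b3 was detected on 16 arrays and that of Star on 14. Of markers outside the list, the probes of Hsd3b1 and Hsd3b6, dehydrogenases of the steroid pathway, were detected on no array. Of the adrenal markers, probes of Cyp11b1, Cyp21a1 and the corticotropin receptor gene Mc2r were detected on 0 arrays. One Cyp11b2 probe was detected on 8 arrays, and the probe of Mrap, an accessory protein of that receptor, on 33. The summed intensity of the 2 adrenal genes tested was 234 to 611 in Brdt-/- and 226 to 300 in Brdt+/+ animals at 20 dpp. Of the epididymis list 1 of 6 genes, Wfdc10 (0.94), was higher in Brdt-/- than in Brdt+/+ testes at 20 dpp, and the summed intensity of the list was 7234 to 14693 in Brdt-/- and 4504 to 7806 in Brdt+/+ animals. The part of epididymal tissue in the Leydig gene values was not tested.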

How the data were processed

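The authors deposited probe signals as intensity on a linear scale, not normalised between arrays, and gave detection p-values beside them. GenomeStudio 2011.1 is named in the submitters' processing notes. No source used here says if background had been removed. A matrix of the authors' processed values, also deposited as intensity, served as an alternative. All 108 columns were mapped to samples. Probes were named through the platform annotation, with 1 symbol for 34885, several for 18 and none for 10378 probes; symbols were updated through a RefSeq table used for names.

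Signals were corrected by normexp and quantile-normalised on the log2 scale with neqc of limma 3.58.1 (offset 16, R 4.3.3). Negative controls were inferred from the detection p-values. Arrays that share mouse number, litter and testis weight were averaged as 1 animal; whether they are separate extractions is not stated, and p-values measure the spread between these animals. Probes detected (p under 0.01 on every array of an animal) in at least 3 animals were kept (21190). Of several probes of a gene, the one brightest on average stood for it. Star and Hsd17b3 passed this filter with arrays detected mainly outside the Brdt+/+ group. A linear model over 6 groups with lmFit and eBayes with trend was fitted to 11529 genes and adjusted over all of them by Benjamini-Hochberg, with calls at 0.05. The script was tested on simulated data. Array number limits the precision.

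The members, gene lists and tests were chosen with earlier results of these data known. Named genes outside the members were, per comparison, up to 6 called steroidogenesis or Leydig genes and up to 3 cholesterol synthesis genes with the smallest adjusted p, and up to 2 genes of each marker list. The 5 genes most like the members were those with the highest correlation over 24 animals. Alternatives covered background correction, scaling, filter, probe choice, centring, litters, control genotypes and single animals.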

Additional observations from a re-analysis of the deposited data

Results flagged for a closer look

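Of 32 groups of 4 to 6 animals examined over the 8 genes, 2 held an animal whose gap to its nearest neighbour was wide for the group's range, a test that marks about 1 in 20 groups by chance. In Brdt-/- animals at 17 dpp, animal 73 stood at 8.68 for Cyp11a1, where the others lay at 7.37 to 7.58. In Brdt-/- animals at 20 dpp, animal 139 stood at 11.57 for Cyp17a1, where the others lay at 12.46 to 12.61.

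The knockout effect differed between 17 and 20 dpp, by the test of the difference itself, for Akr1cl (0.93), Aldh1a1 (0.87) and Cyb5a (0.47), with limma adjusted p of 0.0021, 0.016 and 0.038. The litters of the 2 ages differ, and the controls were heterozygous at 17 dpp and wild type at 20 dpp, so these cannot be told apart from age.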

How the results depend on the processing

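The count of called genes in Brdt-/- against Brdt+/+ testes at 20 dpp was 6, and 3 within litter 1 alone and 1 relative to the Sertoli list change. Relative to the median Sertoli level it was 3, all lower. That centre moved by 1.13 between these groups although the median Sertoli gene moved by 0.65, so its values follow the genes in the middle of the list. On that centre Akr1cl stood at -0.12, Aldh1a1 at -0.21, Cyb5a at -0.50, Cyp11a1 at -0.13, Hsd17b3 at -0.56 and Insl3 at -0.55, and in older against younger controls Akr1cl stood at 0.30, Aldh1a1 at 0.26, Cyb5a at 0.26 and Hsd17b3 at 0.33. For the difference of knockout effects between ages it gave -0.021 for Aldh1a1 and -0.43 for Cyb5a. Relative to the Sertoli list change, Cyb5a (-0.026), Hsd17b3 (-0.086) and Insl3 (-0.073) changed sign in Brdt-/- against Brdt+/+ testes. With the mean of a gene's probes, Cyp11a1 stood at -0.50 in older against younger controls, since its probes differ.

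The count of 3 for the difference of knockout effects was 1 relative to the median of all genes and with litter as a block, 0 on both Sertoli centres, and 5 with a brightness block. With a replicate block it was also 5. Nothing in the labels says that a replicate number marks a shared source. Same-numbered arrays of the compared groups had correlations of -0.15 to 0.66, with means of 0.24, 0.19 and 0.32 in the 3 pairs of groups, against -0.05, -0.04 and -0.07 for other numbers. Since not every pair was above 0.1, the numbers were not taken as a pairing. In the BD1 line the count of 0 became 1 (Aldh1a1) with litter as a block, with BD1+/+ controls only, with arrays as units and animal as a random block, with the brightness block and with the replicate block. For the BD1 effect minus the knockout effect it became 1 (Akr1cl) with BD1+/- controls only and with the brightness block. The count of 3 for Brdt-/- testes at 20 against 17 dpp became 0 without animals 122 and 121. Leaving out 1 animal at a time gave 4 to 6 genes in Brdt-/- against Brdt+/+ testes at 20 dpp, 0 to 3 in the BD1 line (1 without animal 222, 3 without animal 191), 0 to 1 for the BD1 effect minus the knockout effect (1 without animal 196), 4 to 5 in older against younger controls, 0 to 4 for Brdt-/- testes at 20 against 17 dpp (0 without animal 122 or 152, 1 without animal 140) and 1 to 4 for the difference of knockout effects between ages (1 without animal 149 or 157). The cause of these changes was not tested. The median of all genes itself moved by 0.24 in Brdt-/- against Brdt+/+ testes; relative to it 4 genes were called higher, and Hsd17b3 (0.32) and Insl3 (0.34) were not.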

Other observations

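The list of adrenal markers held 1 gene that differed between the control groups at 20 dpp: Mrap lay at 4.82 to 6.13 (log2 normalised intensity) in the controls of the BD1 line and at 7.46 to 8.07 in Brdt+/+ animals, a difference of -2.14 with a limma adjusted p of 0.0039. In the same comparison the angiotensinogen gene Agt was higher in the controls of the BD1 line by 0.95 (limma adjusted p = 0.0090), and Idi1, an isomerase of cholesterol synthesis, by 0.83 (limma adjusted p = 0.036). Idi1 lay at 5.09 to 5.35 in Brdt+/+ animals, near the 5.02 to 5.19 of the undetected Hsd17b3 probe there. The lowest Mrap value also lay near background, so the sizes of these 2 differences are not exact. Between the knockout effects at 20 and 17 dpp, Msmo1 (0.77) and Dhcr7 (0.65) differed in 1 direction and Sqle (-0.62) in the other, with limma adjusted p of 0.0016, 0.036 and 0.033.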
